A study of Mus musculus with 2 samples.

Results

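Complement transcripts were examined in single-cell RNA sequencing of regenerating mouse tibialis anterior, which lies along the shin. The 9 genes described here were chosen by name, among the 27998 genes of the deposited tables, as the C1q subunits C1qa, C1qb and C1qc, the components C1ra, C2, C3 and C4b, the inhibitor Serping1 and the receptor C3ar1. For each of them, unique molecular identifier (UMI) counts were summed over the cells that share an annotated cell type and a time point. Muscle was injured with notexin, a snake venom toxin that destroys muscle fibres, and collected 2 or 7 days later. Both libraries were made from C57Bl/6 mice (C57BL/6J in the cell annotation) with droplet chemistry (10x Chromium v3), 1 library and 1 mouse for each day. No uninjured library was analysed here.

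The complement system is a cascade of plasma and tissue proteins that tags debris and microbes for removal. C1q, built from the chains A, B and C, recognises its target and carries the proteases C1r and C1s. C1r activates C1s, which cuts C4 and C2 so that C3 can be cleaved, while C1 inhibitor (encoded by Serping1) blocks C1r and C1s. Liver cells make most plasma complement, but C1q is a known product of tissue macrophages, and fibroblast-like cells of many tissues express other components. In muscle the latter cells are the fibro-adipogenic progenitors (FAPs), which lie between the fibres and lay down matrix after injury.

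The labels give both animals as female and 7 months old, whereas the cell annotation gives both as male and the day 2 animal as 4 months old. On sex, the counts went with the annotation. Counts of 4 genes of the Y chromosome summed to 6575 at day 2 and 4856 at day 7, while Xist had 5 and 1. These counts do not bear on age. After the limits on cell quality, 3178 annotated cells with 34026345 counts were kept at day 2 and 3196 with 27620535 at day 7, and the libraries shared 1 annotated barcode. The median kept cell held 9058.5 counts at day 2 and 6583 at day 7. With 1 library a day there is no replicate error. Levels are counts scaled to the total of the cell type (CPM). Parentheses give 95% intervals, which cover counting error only. A difference between the days is therefore a difference between 2 libraries, and day, animal and library cannot be told apart. Per the methods of the study, cell types came from clustering of expression profiles and were named by canonical marker genes. Levels are therefore compared between cell types only as a description.

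The C1q genes lie side by side on the minus strand of chromosome 4 in build GRCm38 (annotation GENCODE vM21), C1qb at chr4:136880129-136886187, C1qc at chr4:136889804-136893065 and C1qa at chr4:136895917-136898803. The gaps between them are 3616 and 2851 bases, and the whole group spans 18675 bases. C3 lies apart, on the minus strand of chromosome 17 at chr17:57203970-57228136. Promoter sequence is shown for C1qb and C1qc because their counts moved together, and for C3 because its counts did not follow theirs. It was taken from RefSeq for build GRCm38.p6, where 5 of the 9 genes had an entry, and cut to the bases before the annotated start. Each run reads 5′ to 3′ along the transcribed strand. In C1qb (chr4:136886201-136886450, minus strand) capitals mark GAGGAA, a core bound by PU.1, the ETS factor of myeloid cells, and in C1qc (chr4:136893066-136893164, minus strand) they mark the same letters on the opposite strand. In C3 (chr17:57228137-57228386, minus strand) capitals mark TTNNGCAA, letters of the C/EBP family, again on the opposite strand.
C1qb: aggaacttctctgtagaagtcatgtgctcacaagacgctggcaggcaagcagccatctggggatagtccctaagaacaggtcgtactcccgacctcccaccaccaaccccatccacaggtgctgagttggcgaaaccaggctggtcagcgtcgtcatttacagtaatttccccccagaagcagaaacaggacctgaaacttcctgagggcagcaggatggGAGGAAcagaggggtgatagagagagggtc
C1qc: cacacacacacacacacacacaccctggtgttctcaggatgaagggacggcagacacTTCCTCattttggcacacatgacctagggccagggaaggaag
C3: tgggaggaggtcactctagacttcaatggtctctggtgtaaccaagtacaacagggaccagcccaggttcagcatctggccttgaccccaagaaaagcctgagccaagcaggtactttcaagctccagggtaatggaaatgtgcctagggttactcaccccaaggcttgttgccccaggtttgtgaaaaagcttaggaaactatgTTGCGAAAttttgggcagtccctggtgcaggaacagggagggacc
These letters are common. On either strand, GAGGAA was present in 28.3% and TTNNGCAA in 10.8% of the 32851 promoter entries searched, which run slightly past the start. The C1ra entry held GAGGAA, TTNNGCAA and TTCNNNGAA (8.30% of entries), all past the RefSeq start, unlike the matches shown above. The ETS-IRF composite motif (2.72%) was in none of the 5. The C3ar1 entry held none of these letters, GAGGAA included.

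Across the cell types the 9 transcripts fell into a macrophage and monocyte set (C1qa, C1qb, C1qc and C3ar1) and a stromal set (C1ra, C2 and Serping1), with C3 and C4b in both. The names of the cell types were checked against markers, which is partly circular, since the study named them from canonical genes. In cells annotated as macrophages (M1 Macro., M2 Macro. (Cx3cr1_hi) and M2 Macro. (Cx3cr1_lo)), 8 macrophage and monocyte markers summed to 13695 CPM at day 2 and 25449 CPM at day 7, all 8 with counts. In FAPs (adipogenic, pro-remodeling and stem) the same markers summed to 129 and 97.7 CPM, with Cx3cr1 at 0 at day 2. The 6 FAP markers summed to 12636 and 67962 CPM in FAPs, against 231 and 375 CPM in macrophages, where Gsn was the highest of them. In some other labels, markers of another type summed higher than their own. Such sums compare unlike lists, in which a single abundant gene can weigh most, so they do not show that a name is wrong. Cells labelled smooth muscle had more of 4 endothelial markers than of 4 smooth muscle and pericyte markers, 3517 against 2029 CPM at day 2 and 4661 against 4068 CPM at day 7. Likewise endothelial markers (1244 CPM) exceeded T and NK markers (253 CPM) in day 2 T cells, and neutrophil markers (3837 CPM) exceeded B cell markers (3152 CPM) in day 2 B cells. The 10 day 7 neutrophils held more macrophage and monocyte markers (5668 CPM) than neutrophil markers (3339 CPM). Macrophage and monocyte markers also exceeded the own markers of day 2 NK cells (3347 against 1226 CPM). The same held in dendritic cells (2719.9 against 705 CPM at day 2, 2509 against 973 CPM at day 7). Lyz2 alone gave 1550 CPM of that sum in day 2 dendritic cells. Dendritic markers were at 6.30 and 12.1 CPM in macrophages. The myogenic cells of day 7 (MuSCs and myoblasts and progenitors together) held 1322 CPM of FAP markers and 919 CPM of myogenic markers. They also held 62820 CPM of myofibre markers. Day 7 tenocytes held 42105 CPM of FAP markers and 15361 CPM of tenocyte markers, which were at 1113 CPM in day 7 FAPs. These names are used only as labels. Macrophages numbered 792 at day 2 and 492 at day 7, monocytes 500 and 265, and FAPs 215 and 805.

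**Figure D1:**
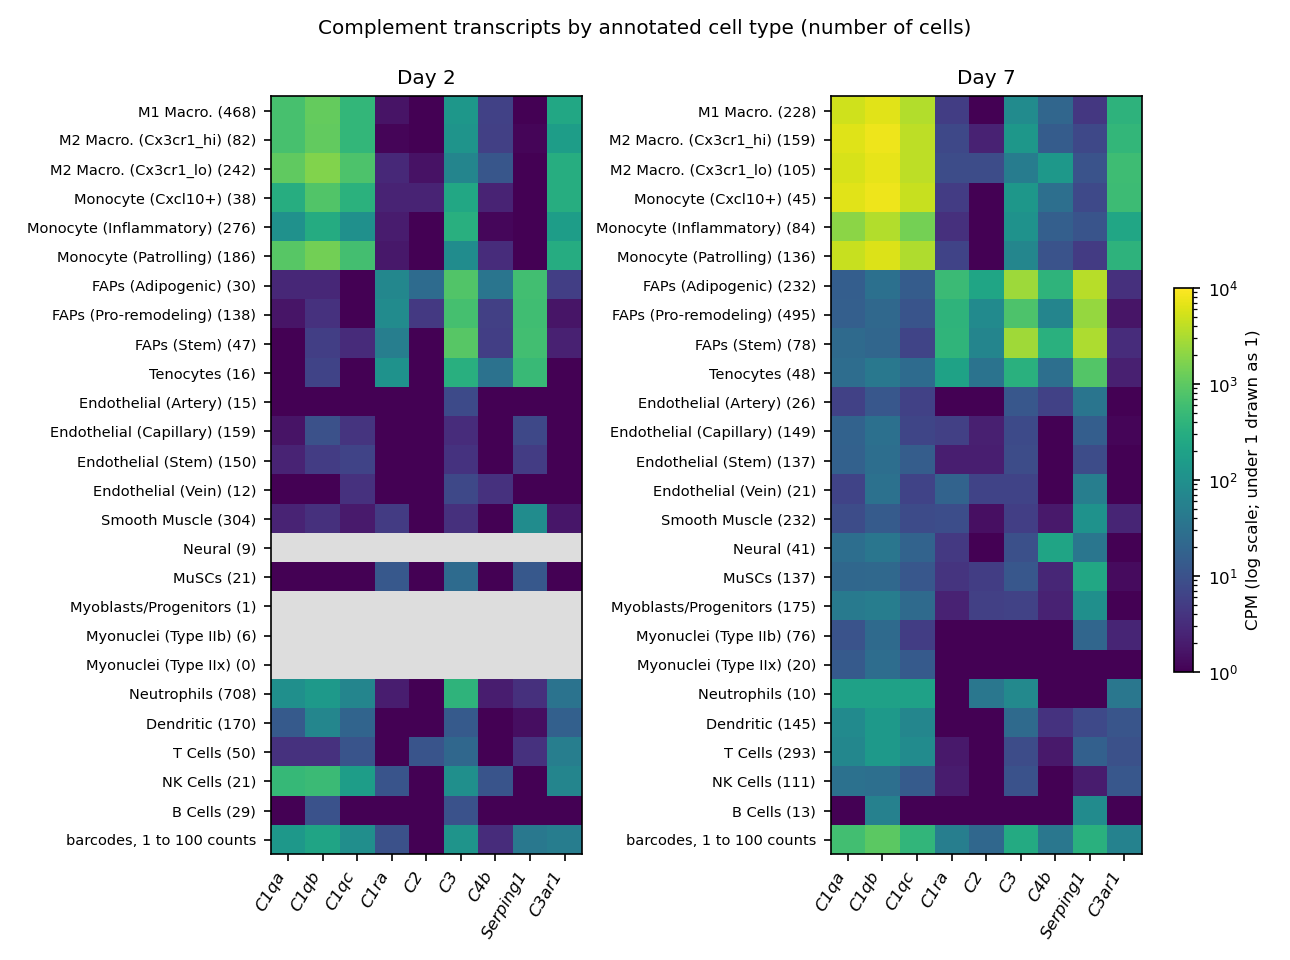
Level of each complement transcript (columns; CPM on a log colour scale, values under 1 drawn as 1) in each annotated cell type (rows, with the number of cells), at day 2 on the left and day 7 on the right. Rows with fewer than 10 cells are grey, and the last row gives barcodes with 1 to 100 counts. The C1q columns are brightest in the 6 macrophage and monocyte rows of day 7, and the C3 and Serping1 columns in the 3 FAP rows.

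All 3 C1q subunits were higher in macrophages of the day 7 library. C1qa, the A chain, was at 788 CPM at day 2 and 5557 CPM at day 7. C1qb, the B chain, was at 1321 and 6900.0 CPM, and C1qc, the C chain, at 543 and 3615 CPM. The ratios were 7.05-fold (6.88 to 7.22) for C1qa, 5.22-fold (5.12 to 5.33) for C1qb and 6.66-fold (6.47 to 6.86) for C1qc, and the 3 counts together were 6.06-fold (5.98 to 6.14) higher. Of the 9 genes, 8 had at least 20 counts in 1 of the days in macrophages, and 6 of them (C1qa, C1qb, C1qc, C1ra, C4b and Serping1) were at least 2-fold higher at day 7, where 16.5% of 10191 genes were. At day 7 C1ra, C4b and Serping1 lay under their level in barcodes with 1 to 100 counts, which hold free RNA, so only the 3 C1q genes of the 6 exceeded it. None of the 8 was at least 2-fold lower, where 14% of all genes were. The median log2 ratio of the 8 genes was 2.23, against -0.11 over all 10191 genes. Without the macrophages that held FAP transcripts, described with C4b, the log2 ratio of summed C1q was 2.65 instead of 2.60, and scaling by the median gene instead of the total would move every macrophage value up by 0.11 on the log2 scale.

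Monocytes were also higher at day 7. Summed over the C1q genes they were at 1752 CPM at day 2 and 13264 CPM at day 7, a ratio of 7.57-fold (7.40 to 7.74). Macrophages lay above monocytes by 1.51-fold (1.48 to 1.55) at day 2 and 1.21-fold (1.20 to 1.23) at day 7.

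Within these classes the summed C1q level depended on the annotated subtype, and more so at day 2. The M2 Macro. (Cx3cr1_lo) cells were highest at day 2 with 3595 CPM (3529 to 3662), followed by patrolling monocytes with 2929 CPM. M1 Macro. and M2 Macro. (Cx3cr1_hi) came next at 2267 and 2231 CPM and did not differ beyond counting error. Cxcl10+ monocytes were at 1477 CPM and inflammatory monocytes lowest at 497 CPM, 0.219 of the M1 level (0.207 to 0.232). At day 7 the Cxcl10+ monocytes had the highest level, 19191 CPM (18757 to 19633), and inflammatory monocytes were again lowest with 6933 CPM, 0.457 of the M1 level (0.442 to 0.472). No neighbours among the 6 subtypes overlapped in their intervals at day 7. Between the libraries the subtypes differed from 4.73-fold in M2 Macro. (Cx3cr1_lo) to 14.0-fold in inflammatory monocytes, so every subtype was higher at day 7. The day 2 level of inflammatory monocytes, 497 CPM, was close to the 453 CPM of barcodes with 1 to 100 counts (free RNA). Their C1qa was under that of barcodes with 1 to 10 counts (104 against 229.7 CPM). Their summed level was above that of endothelial cells at day 2, 15.4 CPM in the capillary and 14.0 CPM in the stem subtype. The part of free RNA in the ratio of inflammatory monocytes was not tested.

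**Figure D2:**
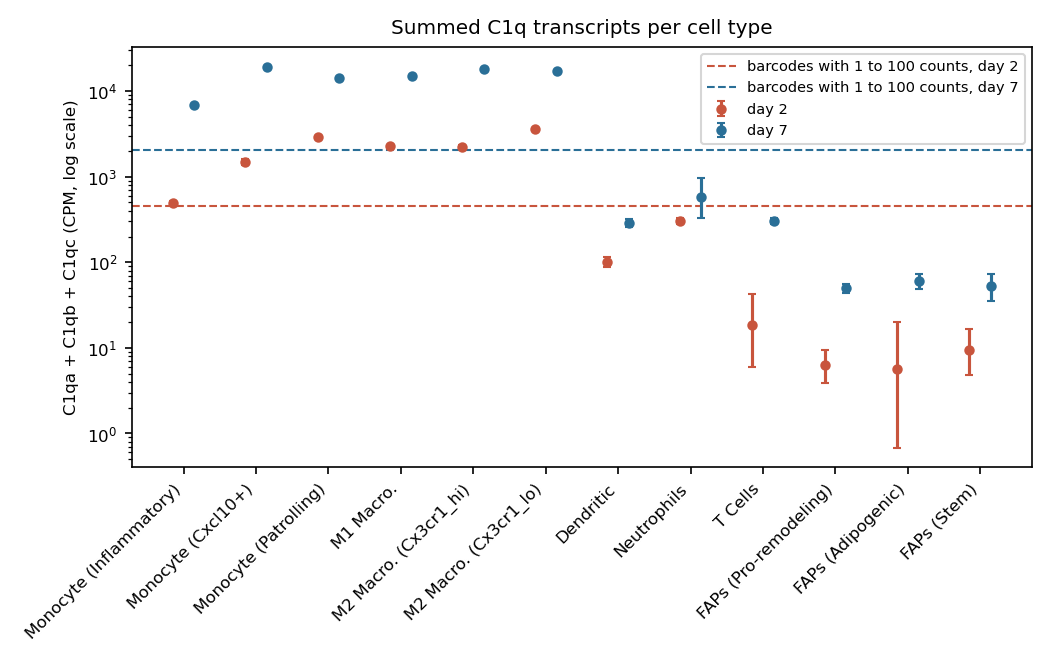
Summed C1qa, C1qb and C1qc level (vertical axis, CPM on a log scale) in 12 annotated cell types, at day 2 in red and day 7 in blue, with 95% counting intervals. Dashed lines give the level in barcodes with 1 to 100 counts, which every macrophage and monocyte point of its day exceeds, inflammatory monocytes at day 2 only narrowly, and the FAP points lie far under.

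Counted cell by cell, the difference lay in how many cells held C1q as well as in how much they held. Each cell was thinned to 2000 counts, which left out 2 macrophages at day 2 and 4 at day 7. C1qa was then found in 36.7% (33.3 to 40.2) of macrophages at day 2 and in 95.7% (93.5 to 97.3) at day 7, and in 47.1% and 97.2% without thinning. Endothelial cells served as the background, with a thinned share of 0.301% at day 2 and 3.72% at day 7, at median depths of 6104.5 and 4217 counts against 12905 and 8815.5 in macrophages. The median macrophage held 1 C1q count of 2000 at day 2 and 32.5 at day 7. At day 2 the distribution was wide, with no C1q count in 49.4% of thinned macrophages and an upper quartile of 8. At day 7 only 2.66% had none. All 3 subunits were seen in the same thinned cell in 30.1% (26.9 to 33.5) of macrophages at day 2 and 93.2% (90.6 to 95.3) at day 7. Patrolling monocytes went from 31.7% to 96.3% and inflammatory monocytes from 3.62% to 52.4%.

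The balance of the subunits differed slightly between the days. C1qb made up 49.8% (49.2 to 50.4) of the C1q counts in macrophages at day 2 and 42.9% (42.6 to 43.3) at day 7, while C1qa went from 29.7% to 34.6% and C1qc from 20.5% to 22.5%. Monocytes as a whole had close values, 49.3% and 44.1% for C1qb. The inflammatory monocytes had C1qb at 58.5% (55.8 to 61.3) and 50.1% (48.5 to 51.7), overlapping the Cxcl10+ monocytes at day 2 (55.2%, 51.1 to 59.3) and no other macrophage or monocyte subtype on either day. Shares of this kind compare 1 gene between cells, since transcripts of different genes are not captured equally.

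Outside the myeloid cells C1q was low, and free RNA of each library also held it. Barcodes with 1 to 100 counts, which hold too little RNA to be cells, had 137 CPM of C1qa at day 2 and 621 CPM at day 7. FAPs had 1.56 and 16.8 CPM of C1qa, 4.09 and 24.0 CPM of C1qb and 1.36 and 11.3 CPM of C1qc, all under that level. After thinning, 1 of 213 FAPs at day 2 and 10.4% (8.39 to 12.8) of 785 at day 7 held a C1q count, against 2.41% and 12.4% of endothelial cells. Their summed C1q was 7.44-fold (5.29 to 10.8) higher at day 7, a ratio that rests on 36 counts at day 2. The share in FAPs is thus within the background that endothelial cells set, and is not read as expression. T cells at day 7 summed to 304 CPM, of which a single cell gave 72.9%. Natural killer cells at day 2 held 1171 CPM over 21 cells, of which a single cell gave 97.2%. Neutrophils at day 2 were at 307 CPM, and 1 cell gave 29.98% of their C1q counts.

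C1ra, C2 and C4b encode the protease C1r and the substrates of C1s. C1ra encodes C1r, the protease that activates C1s. In FAPs it was at 76.8 CPM at day 2 and 424 CPM at day 7, 5.52-fold (4.98 to 6.15) higher. C2, which C1s cuts to form the C3 convertase, was at 4.87 and 109 CPM in FAPs, 22.4-fold (15.1 to 34.9) higher from a day 2 level of 25 counts. C4b, the mouse C4 gene counted here, was at 7.79 and 153 CPM, 19.6-fold (14.3 to 27.6) higher from 40 counts. In FAPs 8 of the 9 genes had at least 20 counts in 1 of the days. Of these, 7 were at least 2-fold higher at day 7 (C1qa, C1qb, C1qc, C1ra, C2, C4b and Serping1), where 25.7% of 11419 genes were, and the 3 C1q genes among them are at background. None was at least 2-fold lower, where 13.9% of all genes were. The median log2 ratio over the 8 genes was 2.80, against 0.22 over all genes tested. That median lay between the ratios of C1qb and C1qc, which are at background, so it is not read as a change in expression.

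Each of the 3 genes was higher at day 7 in every FAP subtype. For C1ra the ratios were 7.47-fold (5.03 to 11.6) in adipogenic, 4.59-fold (4.07 to 5.20) in pro-remodeling and 7.97-fold (6.06 to 10.6) in stem FAPs. C2 at day 7 was highest in adipogenic FAPs with 225 CPM (203 to 249), against 81.5 CPM in pro-remodeling and 65.2 CPM in stem FAPs. The last 2 overlapped, and stem FAPs had no C2 count at day 2, so that C2 was at least 27.6-fold higher there at day 7, against a floor of 3 counts. C4b at day 7 was at 394 CPM (364 to 426) in adipogenic, 341 CPM (296 to 390) in stem and 66.0 CPM (59.6 to 72.9) in pro-remodeling FAPs. The first 2 overlapped and lay 5.97-fold and 5.16-fold above the third.

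C4b was also counted in macrophages and neural cells. Macrophages had 7.60 CPM at day 2 and 32.1 CPM at day 7, a ratio of 4.22-fold (3.22 to 5.57), against 3.27 and 38.1 CPM in barcodes with 1 to 100 counts. After thinning it was found in 1.14% and 5.12% of macrophages, against 0 of 332 endothelial cells at day 2 (95% interval up to 1.10%) and 0.310% at day 7. The free RNA level was thus higher at day 7 as well, and its part in the macrophage ratio was not tested. The M2 Macro. (Cx3cr1_lo) cells differed most, going from 11.7 to 135 CPM (107 to 168), 6.54-fold (4.67 to 9.17) above M1 Macro. at day 7. Without thinning, C4b was found in 25.7% of these 105 cells, a share that is not comparable with the thinned shares above. At day 7, 24.6% of macrophages and 19.6% of monocytes held at least 3 counts of the FAP genes Pdgfra, Dcn, Col1a1, Col3a1 and Dpt, against 0.253% and 0.6% at day 2. Their part in these values was not tested beyond leaving them out. Without these cells the log2 ratio of C4b in macrophages was 1.80 instead of 2.08. In the 41 neural cells of day 7 C4b reached 214 CPM (157 to 286), with 32.6% of its counts in 1 cell. Reads of C4b and C2 may also come from near copies: 57.7% of the 31-base words at the 3′ end of C4b recur in C4a, which was not analysed here, and 42.8% of the exonic bases of C2 are shared with the readthrough gene Gm20547. For C1ra 25.3% of such words recur in C1rb and Gm20559.

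**Figure D3:**
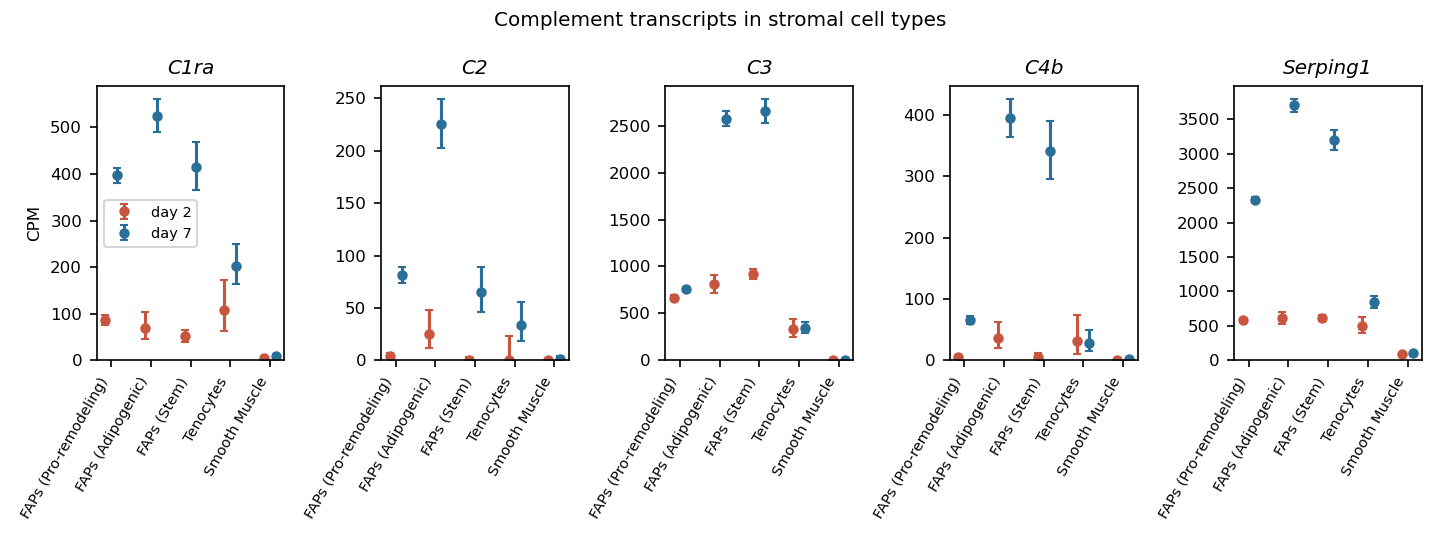
Level of C1ra, C2, C3, C4b and Serping1 (1 panel each, CPM, axes starting at 0) in the 3 FAP subtypes, tenocytes and smooth muscle, at day 2 in red and day 7 in blue, with 95% counting intervals. Adipogenic and stem FAPs of day 7 stand above pro-remodeling FAPs for C3 and C4b, and adipogenic FAPs alone for C2.

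C3, the component on which all activation routes converge, was found in both FAPs and myeloid cells and was higher at day 7 in FAPs but not in macrophages or monocytes. FAPs had 739 CPM at day 2 and 1269 CPM at day 7, 1.72-fold (1.65 to 1.78) higher. Pro-remodeling FAPs, the largest subtype, hardly differed between the libraries, at 668 and 761 CPM. Adipogenic FAPs went from 812 to 2573 CPM, 3.17-fold (2.81 to 3.58), and stem FAPs from 916 to 2650 CPM, 2.89-fold (2.68 to 3.12). With the 3 subtypes weighted equally the log2 ratio in FAPs was 1.32 instead of 0.78, an alternative chosen after seeing the data. At day 7 adipogenic and stem FAPs did not differ in C3 beyond counting error (0.971-fold, 0.917 to 1.03).

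In macrophages C3 was at 110 CPM at day 2 and 91.5 CPM at day 7, 0.832 of the day 2 level (0.747 to 0.927). Both values were under those in barcodes with 1 to 100 counts, 117 and 281 CPM. After thinning C3 was found in 19.9% of macrophages at day 2 and 13.9% at day 7, against 0.904% and 2.17% of endothelial cells. The log2 ratio was -0.26, and it was -0.16 when scaled by the median gene and -0.08 (-0.26 to 0.09) without the cells that held FAP transcripts, which is within counting error. Of the 3 macrophage subtypes, M1 Macro. was lower at day 7 (129 and 84.1 CPM, 0.653 of the day 2 level, 0.569 to 0.748), while M2 Macro. (Cx3cr1_hi) at 119 and 132 CPM and M2 Macro. (Cx3cr1_lo) at 67.2 and 48.5 CPM did not differ beyond counting error. Monocytes differed more, with 207 CPM at day 2 and 88.8 CPM at day 7, 0.430 of the day 2 level (0.369 to 0.498), the day 7 value again under the free RNA level. The inflammatory subtype held the highest monocyte level at day 2, 331 CPM (309 to 355), and was at 110 CPM at day 7. Among macrophages and monocytes at day 2, inflammatory monocytes were highest in C3 and lowest in C1q. M2 Macro. (Cx3cr1_lo) cells were the reverse, at 67.2 CPM of C3, which overlapped patrolling monocytes (87.5 CPM, 76.8 to 99.2).

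Neutrophils were a further source of C3 at day 2. Their 708 cells had 396 CPM (369 to 425), against 117 CPM in barcodes with 1 to 100 counts. After thinning C3 was found in 49.0% of 537 neutrophils, 60.6% of FAPs and 0.904% of endothelial cells, where the median depth was 2351 counts in neutrophils and 24329 in FAPs. No cell gave more than 1.30% of the neutrophil counts. The day 7 library had 10 neutrophils and 2 C3 counts in them, too few for a level.

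Serping1, the inhibitor of C1r and C1s, was at its highest in FAPs. It was at 595 CPM at day 2 and 2669.7 CPM at day 7, 4.49-fold (4.32 to 4.67) higher. The subtypes were alike at day 2, from 585 to 616 CPM with overlapping intervals. At day 7 they were at 3700.4 CPM in adipogenic, 3193 CPM in stem and 2327 CPM in pro-remodeling FAPs, with no overlap. After thinning, Serping1 was found in 66.2% (59.4 to 72.5) of FAPs at day 2 and 97.1% (95.6 to 98.1) at day 7, against 1.51% and 3.1% of endothelial cells.

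Cells labelled tenocytes, the fibroblasts of tendon, had 507 CPM of Serping1 at day 2 over 16 cells and 851 CPM at day 7 over 48 cells, 1.68-fold (1.32 to 2.16) higher. Cells labelled smooth muscle were at 86.7 and 109 CPM, 1.26-fold (1.08 to 1.46). Muscle stem cells (MuSCs) had 248 CPM (213 to 286) at day 7, above the 99.6 CPM of myoblasts and progenitors. All 3 values for smooth muscle and myogenic cells at day 7 were under the 344 CPM of the barcodes with 1 to 100 counts. Macrophages had 0.741 and 5.83 CPM, from 8 and 30 counts, far under the free RNA level as well, as was C1ra in macrophages at day 7 with 6.22 CPM against 52.0 CPM.

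C3ar1, the receptor for the C3a fragment that is released when C3 is cut, kept to macrophages and monocytes. Macrophages were at 258.8 CPM at day 2 and 419 CPM at day 7, 1.62-fold (1.53 to 1.71) higher. Monocytes were at 244 and 375 CPM, 1.54-fold (1.41 to 1.67). FAPs had 2.14 and 2.21 CPM from 11 and 18 counts, under the 50.1 and 59.2 CPM of barcodes with 1 to 100 counts. The M2 Macro. (Cx3cr1_lo) cells stood at 309 and 573 CPM, Cxcl10+ monocytes overlapped them on both days at 309 and 554 CPM, and patrolling monocytes did so at day 2 with 303 CPM. The inflammatory monocytes were lowest at 168 and 230.0 CPM, overlapping M2 Macro. (Cx3cr1_hi) at day 2. After thinning the receptor was found in 37.0% of macrophages at day 2 and 54.1% at day 7. Capillary endothelial cells had no C3ar1 count at day 2 and 1.13 CPM at day 7.

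**Figure D4:**
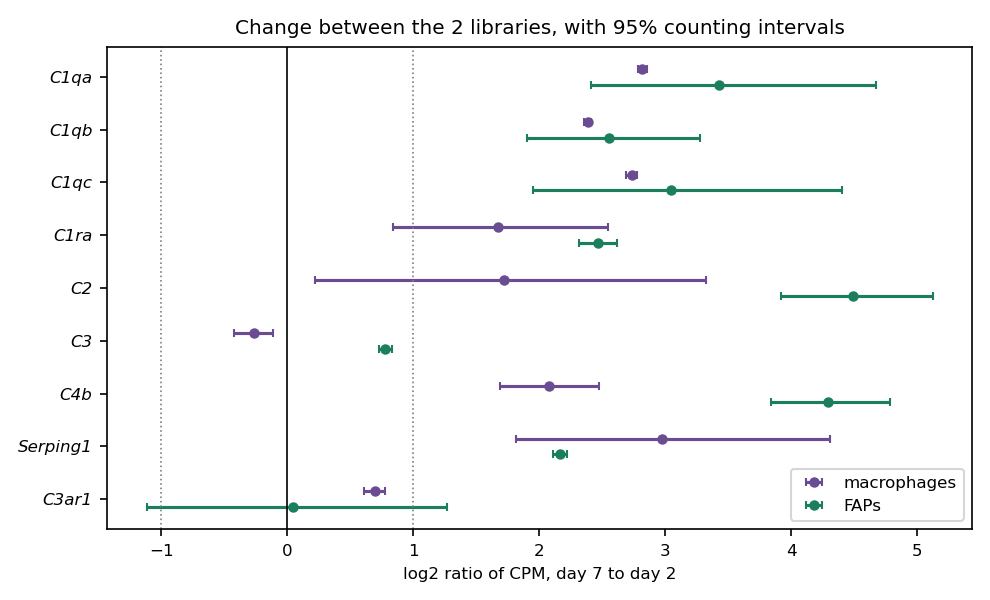
log2 ratio of CPM, day 7 to day 2 (horizontal axis), for each gene in macrophages (purple) and FAPs (green), with 95% counting intervals. Dotted lines mark 2-fold. The interval for C3 lies left of 0 in macrophages and right of 0 in FAPs, and C2 and C4b have the largest ratios in FAPs.

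Set against each other within a day, macrophages and FAPs held opposite parts of the classical pathway. At day 2 the summed C1q level was 378-fold (273 to 540) higher in macrophages and at day 7 308-fold (280 to 340). The FAP counts behind these folds are at background, and with SoupX values, from which free RNA was subtracted, the log2 ratios went from 8.56 to 14.995 and from 8.27 to 10.1. C3ar1 was 121-fold (67.4 to 242) and 190-fold (120 to 321) higher. Its FAP levels were also under free RNA, which held 50.1 CPM at day 2 and 59.2 CPM at day 7. All 9 genes had at least 20 counts in 1 of the classes on both days. C1qa, C1qb, C1qc and C3ar1, 4 of 9, were at least 2-fold higher in macrophages on both days, where 19.2% of 10951 genes were at day 2 and 15.7% of 11947 genes at day 7. On the FAP side C1ra, C2, C3 and Serping1 were at least 2-fold higher at day 2 (4 of 9, where 25.9% of all genes were), and C4b joined them at day 7 (5 of 9, where 32.5% were). The C4b level did not differ between the classes beyond counting error at day 2 (log2 ratio -0.04, -0.60 to 0.55) and was lower in macrophages at day 7 (log2 ratio -2.25, -2.50 to -2.02). For Serping1 the log2 ratios of macrophages to FAPs were -9.65 at day 2 and -8.84 at day 7, and for C3 -2.75 and -3.79. Since the cell types were defined on expression in the same cells, these counts describe the classes and carry no test. The median gene lay at -0.20 at day 2 and -0.13 at day 7 on the same log2 scale.

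The cells that carried each transcript in the whole kept sample depended on cell numbers too, and fewer cells of a type cannot be told apart from fewer cells recovered. Macrophages and monocytes together carried 97.3% (97.1 to 97.5) of C1q counts at day 2 and 98.4% (98.3 to 98.5) at day 7. Their subtypes traded places, with M2 Macro. (Cx3cr1_lo) cells at 28.6% and 8.46% of all C1q counts and M2 Macro. (Cx3cr1_hi) cells at 4.88% and 19.1%. FAPs carried 53.7% (52.6 to 54.9) of C3 counts at day 2, when macrophages gave 16.8%, monocytes 16.7% and neutrophils 10.9%, and 91.7% (91.2 to 92.2) at day 7. Of Serping1 counts FAPs carried 84.5% and 94.6%, and smooth muscle 12.3% at day 2. C4b counts were few at day 2 (153 in all), with 53.6% (45.4 to 61.7) in macrophages and 26.1% in FAPs. At day 7 there were 1527, with 10.8% in macrophages and 81.7% (79.6 to 83.6) in FAPs. For C2, FAPs held 25 of 39 counts at day 2 and 891 of 947 at day 7.

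**Figure D5:**
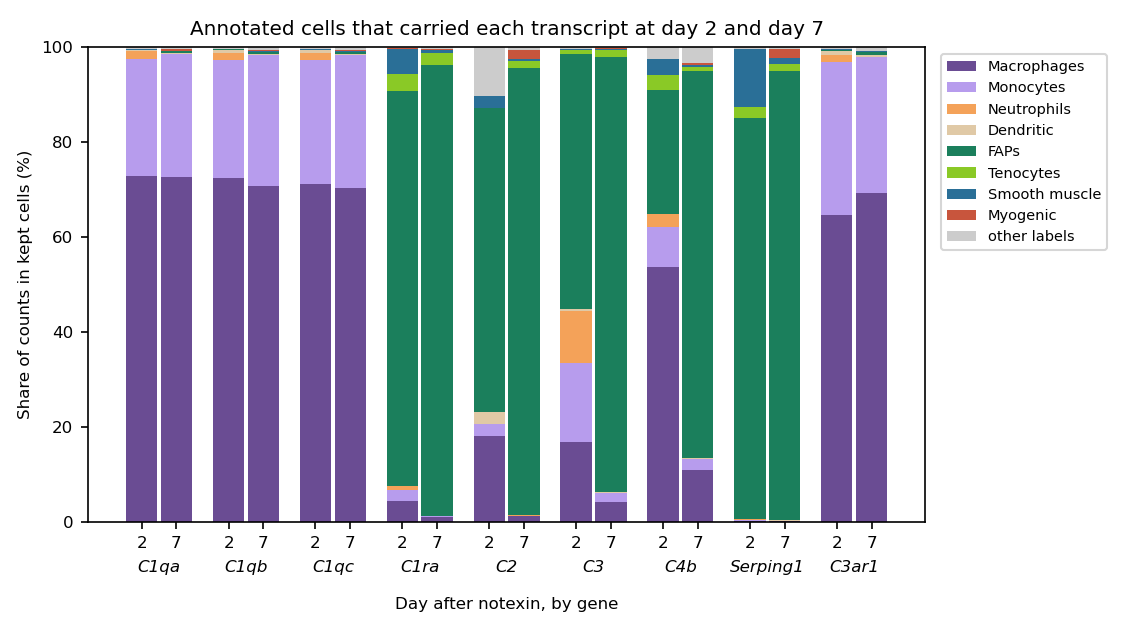
Share of the counts of each gene in kept cells (vertical axis, percent) that came from each class of cell types (colours), for day 2 and day 7 (paired bars). Purple shades (macrophages, monocytes) fill the C1q and C3ar1 bars on both days, and the green of FAPs fills most of the C1ra, C2, C3, C4b and Serping1 bars at day 7.

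Of 40 further complement genes found in the table, 12 had at least 20 counts in macrophages in 1 of the days. Of these 12, 4 were at least 2-fold higher at day 7 (16.5% of all genes) and 3 at least 2-fold lower (14% of all genes), and their median log2 ratio was -0.34 beside -0.11 over all genes. Among receptors, Itgax, the alpha chain of complement receptor 4, was at 10.2 and 313 CPM, 30.7-fold higher. C5ar1, the main receptor for C5a, was at 482 and 83.8 CPM, and Itgam, the alpha chain of complement receptor 3, at 492 and 148 CPM. Itgb2, the chain both integrins share, was at 384 and 302 CPM and was not past 2-fold. Properdin (Cfp), which stabilises the alternative convertase, was at 591 and 129 CPM, whereas factor B (Cfb) was at 5.84 and 18.9 CPM. The pattern recognition gene Fcna and the membrane regulator Cd59a were also at least 2-fold higher, from 7 and 16 counts. At day 7 Cfb and Cd59a (4.28 CPM) lay under their level in barcodes with 1 to 100 counts, 22.4 and 9.06 CPM, while Fcna (4.47 against 0.805 CPM) and Itgax (313 against 58.6 CPM) lay above it. None of the 5 further proteases and none of the 7 terminal components had 20 counts in macrophages.

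In FAPs 13 of the 40 genes had enough counts, of which 6 were at least 2-fold higher at day 7 (25.7% of all genes) and 3 at least 2-fold lower (13.9% of all genes), with a median log2 ratio of 0.43 beside 0.22 over all genes. C1s1, the protease partner of C1r, was at 145 and 843 CPM, 5.83-fold higher. Its ratio was near that of C1ra. Among fluid-phase regulators, vitronectin (Vtn) was at 50.3 and 162 CPM and clusterin (Clu) at 4.87 and 17.7 CPM. The decay-accelerating factor Cd55 was at 25.7 and 98.5 CPM, and Cd46 passed 2-fold on 2 and 23 counts. Cfb was at 78.7 and 96.4 CPM and C7, a terminal component, at 5.45 and 7.36 CPM, neither past 2-fold. The 3 that were lower, Cfp, C5ar1 and Itgam, stood at most at 10.1 CPM in FAPs, against 482 CPM or more in day 2 macrophages, and under free RNA on both days.

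Likeness of pattern was measured over the 29 sums of a cell type and a day with at least 50 cells, as Pearson's r of log2(CPM + 10) among 9008 genes, and is a description over sums that share libraries. For C1qa the closest genes were C1qc (r = 0.99), C1qb (r = 0.99), Trem2 (r = 0.97), Ms4a7 (r = 0.96) and Tlr7 (r = 0.96). Serping1 was closest to Col6a1 (r = 0.98), Lrp3, Col5a3, Snhg18 and Col5a1 (each r = 0.97 or 0.98), a list with 3 collagen genes. C3 had less close neighbours, led by Dram1 (r = 0.94) and followed by Pla2g4a, Mgst1, Igfbp6 and Gsn at 0.86 to 0.87. Among the 9 genes, C3ar1 had r = 0.93 with C1qa, and C1ra had r = 0.91 with C2 and with Serping1, while C3 had r = 0.77 with C1ra, 0.72 with C4b, 0.66 with C2, 0.54 with Serping1 and 0.19 with C1qa.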

How the data were processed

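UMI counts as whole numbers, for called and for all barcodes, were deposited by the authors with SoupX-corrected values (estimated counts that need not be whole) and an annotation table. Reads were aligned to mm10 with Cell Ranger, for which the file headers give version 3.0.1 and the submitters' processing notes 3.1.0, and those notes list Seurat 3.1.5. Per the methods of the study, doublets were removed with DoubletFinder before annotation. No doublet caller was run here. Cells were kept with a cell type, at least 750 genes, 1000 transcripts and at most 30% mitochondrial transcripts in the SoupX values. The 25 cell types were gathered into 14 classes, and macrophages are those spelled "Macro.".

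Deposited counts were summed per cell type and day and scaled to CPM. Intervals are exact Poisson for levels, Clopper-Pearson for shares and conditional binomial for ratios, all at 95%. They cover counting error only. Where a group had no count, 3 counts stood in as a floor. A gene past 2-fold needed 20 counts in 1 group. No p-value is given because the cells of a library do not replicate it. Endothelial cells and barcodes with 1 to 100 counts gave the background. The genes and lists were chosen with earlier results of these data known, and the text names the 9 genes, 40 further complement genes (C4a was not analysed here, and the values of 1 gene counted among the 40 are not reported here) and, for C1qa, C3 and Serping1, the 5 genes closest in pattern. C1s2 and Itgam, carried by more than 1 identifier, were taken by the identifier of GENCODE vM21. The interval code was tested on simulated data. Python 3.11.15, NumPy 2.4.6, SciPy 1.17.1, pandas 2.3.3 and Matplotlib 3.10.9 were used. Alternatives were SoupX values, all annotated barcodes, limits of 1000 genes, 2000 transcripts and 15%, means over cells, median-of-ratios scaling, removal of mixed cells, other folds (1.5 and 4) and filters (100 counts or none), and other classes.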

Additional observations from a re-analysis of the deposited data

Results flagged for a closer look

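C3 had ratios of opposite sign in the classes, though not under every alternative beyond counting error. Its log2 ratio, day 7 to day 2, was -0.26 in macrophages and 0.78 in FAPs, and the difference between these was not tested, since each day had 1 library. In macrophages C3 was under its level in barcodes with 1 to 100 counts on both days (110 against 117 CPM and 91.5 against 281 CPM), and was found after thinning in 19.9% and 13.9% of them against 0.904% and 2.17% of endothelial cells. Without the cells that held FAP transcripts the macrophage value was -0.08 (-0.26 to 0.09), within counting error, and M2 Macro. (Cx3cr1_hi) went the other way (119 and 132 CPM, with overlapping intervals).

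Called barcodes that met the limits but were not in the annotation table also held complement transcripts, above the floor that a count of 0 allows. At day 2 these 680 barcodes had 781 CPM of summed C1q, 183 CPM of C3 and 116 CPM of Serping1. At day 7 the 477 such barcodes had 3009 CPM of summed C1q, 64.9 CPM of C3 and 183 CPM of Serping1. Of them, 4 at day 2 and 7 at day 7 held at least 3 counts each of C1q and Serping1, against 1 of 3178 and 23 of 3196 annotated cells.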

How the results depend on the processing

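No result reversed direction under any alternative. The count of the 9 genes past 2-fold stayed within 1.5 times its value under each. The log2 ratio of summed C1q, day 7 to day 2, in macrophages was 2.60 and became 2.76 as a mean over cells, 2.71 with median-of-ratios scaling, 2.65 without mixed cells, 2.70 with monocytes added and 2.63 with the subtypes weighted equally. In FAPs it went from 2.89 to 7.51 with SoupX values, which leave almost no C1q in day 2 FAPs. Between macrophages and FAPs it went from 8.56 to 14.995 (day 2) and from 8.27 to 10.1 (day 7) with SoupX values, and at day 7 to 7.98 as a mean over cells and 8.67 without mixed cells. Among shares of transcripts, those of macrophage C1q were 71.8% (day 7) with SoupX values, 72.7% and 69.4% without mixed cells and 73.3% (day 2) without neutrophils. For C3 in FAPs they were 92.7% (day 7) with SoupX values, 52.4% (day 2) with all annotated barcodes, 57.5% (day 2) with stricter limits, 52.6% and 92.8% without mixed cells, 93.1% (day 7) with tenocytes added and 60.3% (day 2) without neutrophils. For Serping1 in FAPs they were 95.2% (day 7) with SoupX values, 94.9% (day 7) with stricter limits, and 86.7% and 96.3% with tenocytes added. Shares of cells with a count were lower with at least 2 counts or 1000 counts a cell, at 28.2% and 30.7% for C1qa in day 2 macrophages, 34.7% and 41.4% for C3 in day 2 FAPs, 40.9% and 49.9% at day 7, 36.2% and 42.8% for Serping1 in day 2 FAPs, and 89.0% and 85.7% at day 7. Of 257 ratios of single genes, 48 moved beyond their counting interval and 209 did not. Leaving out neutrophils and weighting subtypes equally were chosen after seeing the data.

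No paired analysis was possible because each day had 1 library. C2 and Serping1 in macrophages rested on 7 and 8 counts at day 2, and C1q in FAPs is at background.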

Other observations

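Barcodes in the annotation table without a cell type were few, 30 at day 2 and 25 at day 7. Their summed C1q level was 3464 CPM (3190 to 3756) and 9204 CPM (8547 to 9898), and they held no Serping1 count on either day, where the floor of 3 counts stands for 17.7 and 38.0 CPM and the 95% upper limits are 21.7 and 46.7 CPM.

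In barcodes with 1 to 100 counts, C1qb made up 48.7% of the C1q counts at day 2 and 48.1% at day 7. The day 7 share lay outside the interval of the day 7 macrophages (42.6 to 43.3). C3 in these barcodes was at 117 and 281 CPM, Serping1 at 40.3 and 344 CPM, and C2 had no count among 3053639 at day 2 and 109 counts at day 7.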
